A study of Oryctolagus cuniculus with 134 samples.

Results

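The subject here is the lysosomal cathepsins, the subunits of the lysosomal proton pump, the LAMP membrane glycoproteins and prosaposin in rabbit heart valves and aorta. Members were every gene of the count tables whose symbol is CTS followed by a single letter, starts with ATP6V or ATP6AP, or is LAMP followed by a digit, together with PSAP. This gave 34 of the 29587 genes listed, of which 14716 carried a symbol. They comprised 11 cathepsins, 17 subunits of the V-type ATPase (10 of its V1 and 7 of its V0 sector), the accessory protein ATP6AP2, ATP6V1FNB (named for its position beside ATP6V1F), 3 LAMP genes and PSAP. CTSD, CTSL, CTSH, ATP6AP1 and LAMP3 are not analysed here. CTSV is the symbol as the tables give it, and whether that rabbit locus corresponds to cathepsin V or to cathepsin L of other species was not settled.

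RNA was sequenced from the aorta, aortic valve, mitral valve, pulmonary valve and tricuspid valve of 27 male New Zealand White rabbits, which gave 134 libraries. Rabbits were 12 weeks old when the 16-week protocol began and were assigned to 4 treatments. Ctrl rabbits ate chow and received no vitamin D2. CHT rabbits ate a 0.3% cholesterol diet and Lard rabbits a 5% lard diet, and both drank vitamin D2 (25000 U a day for each 2.5 kg) for 15 days at the start. IR/CHT rabbits received the CHT diet and vitamin D2 and, after 8 weeks of it, X-ray irradiation aimed at the aortic valve and thoracic aorta, 24 Gy in 3 fractions of 8 Gy. Groups held 7 Ctrl, 6 CHT, 7 Lard and 7 IR/CHT libraries in each tissue, except for 6 Ctrl mitral valves. There was no group with vitamin D2 on chow or irradiation on chow among these libraries, so the effect of the diet and that of the vitamin cannot be told apart.

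Lysosomes are the acidic compartments in which cells break down material taken up from outside or delivered by autophagy. The V-type ATPase acidifies them: its V1 sector hydrolyses ATP in the cytosol and its V0 sector carries protons across the membrane. Cathepsins are the proteases that work in that acid, prosaposin is cut there into the saposins that help enzymes digest sphingolipids, and LAMP proteins line the membrane; macrophages, which take up lipoprotein cholesterol in arteries and diseased valves, are rich in all of them.

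Levels are given in CPM, a gene's count as a share of its library's total with a scaling between libraries, and compared between groups for 1 gene or 1 fixed set of genes, not between genes, since CPM does not correct for gene length. Changes are log2 fold changes ± standard error from edgeR's quasi-likelihood test within each tissue, and a member was called when its Benjamini-Hochberg adjusted p over all genes tested was under 0.05 and its fold change over 1.5. Of the 34 members, 27 passed the filter on low counts in the aorta, mitral valve and aortic valve and 25 in the pulmonary and tricuspid valves. CTSG, a neutrophil granule protease, ATP6V1B1, ATP6V1C2, ATP6V1E2, ATP6V1G3, ATP6V0A4 and LAMP5 passed in no tissue. None of those 7 exceeded 15 counts in any library. CTSE was not tested in the pulmonary valve, ATP6V0D2 not in the tricuspid valve and ATP6V1FNB in neither. Some members had a median of under 10 counts in Ctrl libraries and so passed mainly through other groups: ATP6V0D2, CTSE and ATP6V1FNB in the aorta and mitral valve, ATP6V0D2 in the aortic and pulmonary valves and CTSE in the tricuspid valve. Their folds rest on few Ctrl counts. Without them the members called higher than Ctrl under CHT and IR/CHT were 18 and 19 of 24 in the aorta, 18 and 23 of 26 in the aortic valve and 13 and 17 of 24 in the mitral valve. For IR/CHT against CHT they were 20 of 26 in the aortic valve and 1 of 24 in the mitral valve. The counts below of members whose groups did not overlap were taken over all members tested, those low in Ctrl included.

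Library totals ran from 13564979 to 50577676 counts, with a median of 18235577. Plate 2 held all aortas, plate 1 held every CHT library from the mitral and aortic valves, and the other valve groups were split between the 2 plates. The 5 libraries whose expression correlated least with the rest of their own group are said below to stand apart. The number 5 was fixed by rule and is not a finding. Correlations were 0.861 to 0.951 in these 5 and 0.956 or more in the other 129, with no wide gap at the cut. The 5 were a Ctrl and a CHT aortic valve (L150, L151), a Ctrl and an IR/CHT tricuspid valve (L168, L197) and an IR/CHT pulmonary valve (L275). Heart muscle genes varied widely in the aortic valve, from 175.2 to 12560 CPM summed over 8 genes in Ctrl and from 15.1 to 359 CPM in CHT, and endothelial genes were present in every tissue. In bulk tissue, more cells of a type and more RNA per cell cannot be told apart.

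In the aorta most of the module was higher under CHT: 20 of 27 members tested were higher than in Ctrl and 0 were lower, where 14.2% of all genes tested were called higher and 5.18% lower. The median change was 1.12 over the members and -0.04 over all genes. In 19 members every CHT library lay above every Ctrl library, which held for 7.75% of all genes. CTSE and ATP6V0D2, which were low in Ctrl, are among the 19. By role, 6 of 8 cysteine cathepsins rose, as did 4 of 6 V1 subunits and 5 of 6 V0 subunits. Of 16 macrophage markers, 13 were higher as well.

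CTSB (ENSOCUG00000016580), a broad lysosomal cysteine protease, had a lowest, median and highest level of 312, 375 and 419 CPM in Ctrl aortas and 1506, 2152 and 4120 CPM under CHT. The groups did not overlap, and the change was 2.78 ± 0.25 (adjusted p = 7.26e-09). CTSS (ENSOCUG00000011085), a protease that stays active at neutral pH and trims the invariant chain of MHC class II in antigen-presenting cells, went from 6.67, 8.61 and 14.7 CPM to 92.8, 174.1 and 309 CPM. Again no CHT library reached down to the Ctrl range, and the change was 4.30 ± 0.36 (adjusted p = 3.29e-09). CTSK (ENSOCUG00000011090), a collagenase best known from osteoclasts, was at 266.5, 333 and 477 CPM in Ctrl and 728, 770.3 and 1053 CPM in CHT, a change of 1.25 ± 0.17. CTSV, a cysteine protease of the cathepsin L and V type, rose by 2.38 ± 0.29, the carboxypeptidase CTSZ by 1.66 ± 0.20 and CTSC, which activates granule proteases, by 1.20 ± 0.17. CTSA, the serine carboxypeptidase that also shields lysosomal galactosidase, rose by 1.02 ± 0.18. The aspartic protease CTSE, found mainly in endosomes of immune and epithelial cells, was nearly absent from most Ctrl aortas at 0, 0.387 and 9.33 CPM and reached 24.9, 43.1 and 76.8 CPM under CHT. Its groups did not overlap either (change 4.57 ± 0.85, adjusted p = 0.000192). The remaining cysteine cathepsins, CTSF and CTSO, had changes of 0.37 ± 0.34 and 0.32 ± 0.17 with adjusted p of 0.44 and 0.157.

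Among the pump genes of the aorta, ATP6V1B2 (ENSOCUG00000001013), the widely expressed nucleotide-binding B subunit of V1, had the smallest p. It measured 39.2, 40.98 and 45.5 CPM in Ctrl and 96.4, 114 and 149 CPM in CHT. The 2 ranges lay far apart, with a change of 1.55 ± 0.14 (adjusted p = 9.97e-09). The catalytic subunit ATP6V1A rose by 1.12 ± 0.16, the regulatory subunit ATP6V1H by 1.12 ± 0.14 and ATP6V1C1 by 1.02 ± 0.19. ATP6V1D and ATP6V1E1, which belong to the central and peripheral stalks that hold V1 to V0, had changes of 0.06 ± 0.10 and 0.18 ± 0.10 and were not called. In V0, the proteolipid genes ATP6V0B and ATP6V0C rose by 1.24 ± 0.16 and 1.75 ± 0.34, ATP6V0D1 by 0.68 ± 0.11 and ATP6V0A1 by 0.66 ± 0.13, while ATP6V0E1 stood at 0.21 ± 0.15 (adjusted p = 0.319). ATP6V0D2 (ENSOCUG00000010247), the alternative d subunit known from osteoclasts and macrophages, went from 0, 0.317 and 7.36 CPM in Ctrl to 29.4, 33.7 and 107 CPM in CHT. All CHT libraries were above all Ctrl libraries, and at 5.02 ± 0.97 its fitted change was larger than that of any other member, although it rests on few counts in Ctrl.

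ATP6AP2, the accessory protein also known as the prorenin receptor, rose by 0.73 ± 0.13 in the aorta. PSAP (ENSOCUG00000016261) measured 428, 548.3 and 692 CPM in Ctrl and 1160, 1700 and 2301 CPM in CHT, groups that did not overlap (change 1.60 ± 0.19, adjusted p = 3.54e-07). Of the 2 LAMP genes tested, LAMP1 rose by 1.09 ± 0.27, from 45.1, 77.4 and 116 to 94.6, 152.7 and 241.9 CPM with overlapping ranges, and LAMP2 was at 75.0, 95.6 and 116 CPM in Ctrl and 76.9, 95.4 and 104 CPM in CHT. The 95% interval of the LAMP2 change was -0.27 to 0.16, and in the IR/CHT aorta the change was -0.02 ± 0.10.

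**Figure D1:**
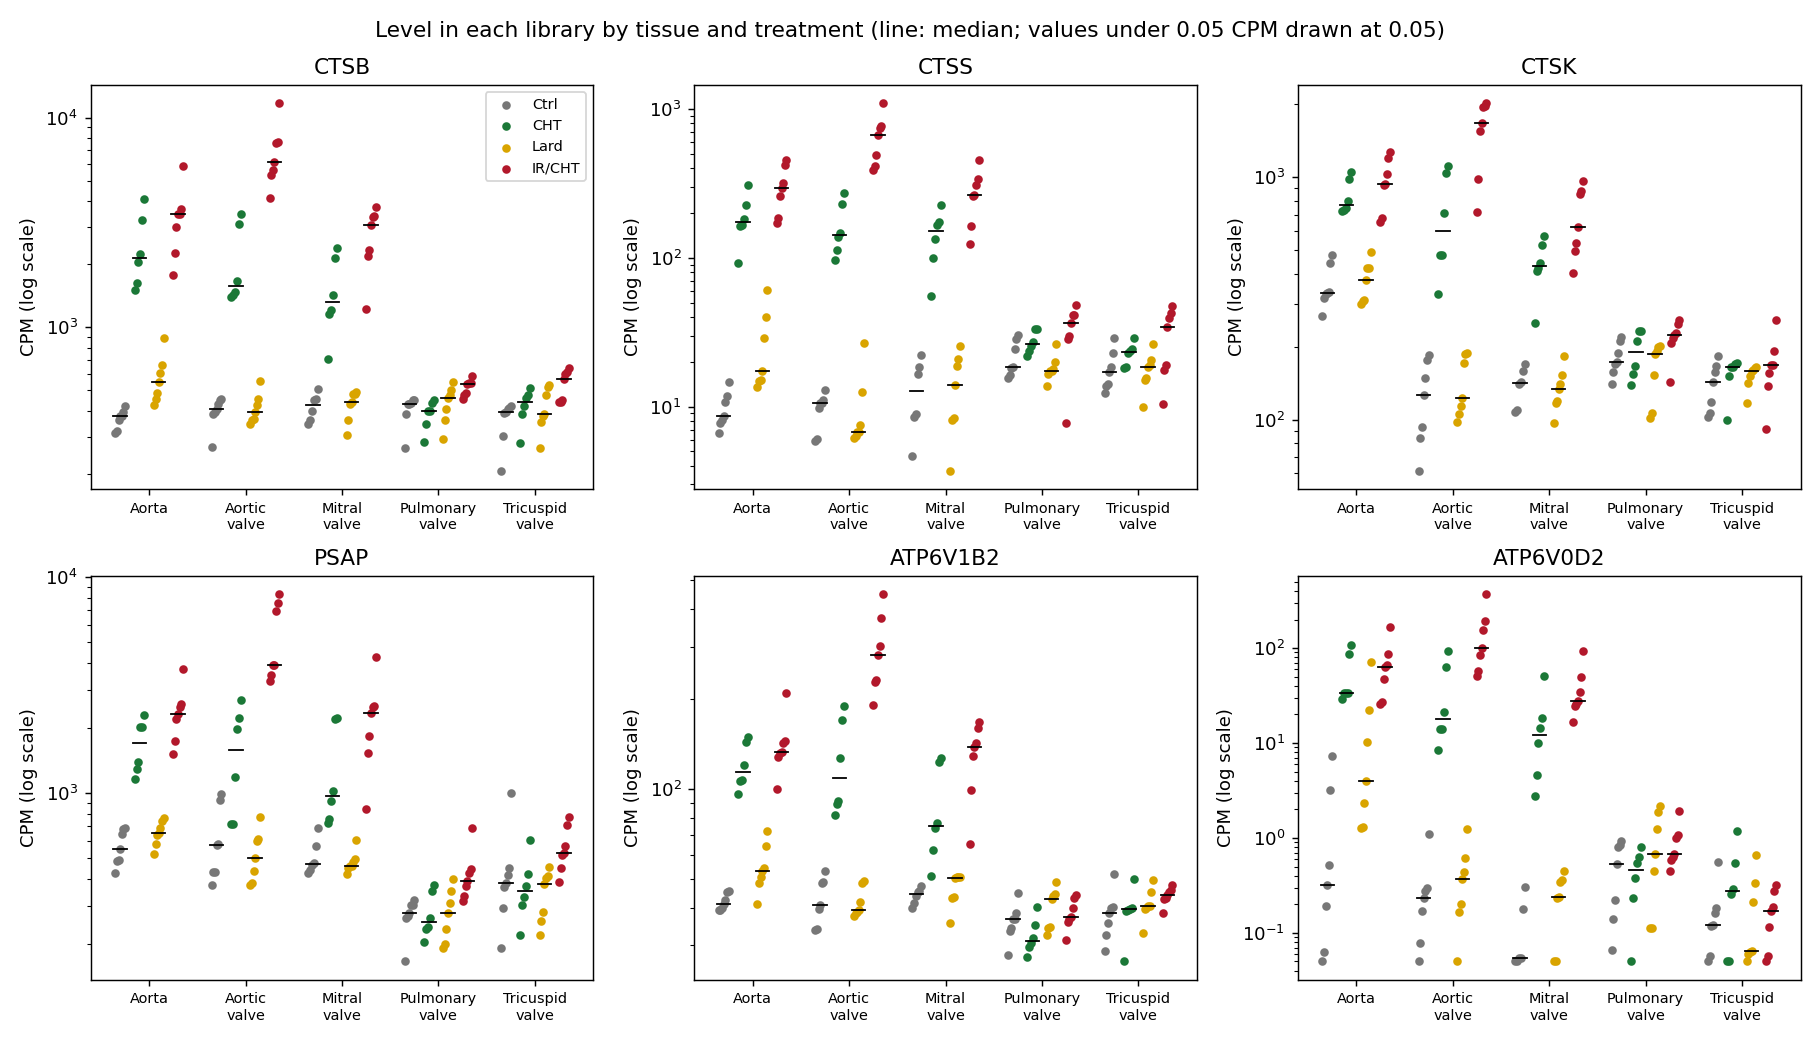
Level in CPM on a log axis of 6 members in each library, by tissue and treatment, with a line at each group median. In the aorta, mitral valve and aortic valve the CHT and IR/CHT libraries lie above the Ctrl libraries for CTSB, CTSS and ATP6V0D2, and those of the pulmonary and tricuspid valves lie near them; values under 0.05 CPM are drawn at 0.05.

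With the Lard diet, 2 of 27 members were called in the aorta, both higher, where 2.57% of all genes were called higher and 0.0406% lower, and the members' median change was 0.23. Without the members low in Ctrl, which include ATP6V0D2, it was 1 of 24, a count too small to set apart from the share of all genes. CTSS measured 13.6, 17.4 and 60.5 CPM in Lard aortas. Its lowest Lard library lay inside the Ctrl range and its highest stayed under every CHT library, with a change of 1.49 ± 0.33 (adjusted p = 0.0118). ATP6V0D2 was at 1.27, 3.97 and 71.2 CPM, overlapping Ctrl, with a change of 3.28 ± 0.91 (adjusted p = 0.049). Library L578 held its highest value, and without it the change was 2.09 with an adjusted p of 0.238. The ATP6V0D2 call was also lost without any of Ctrl L552, L553, L568, L569, L570 and L571 or Lard L562 and L575, with adjusted p from 0.0595 to 0.101, while the CTSS call held in all 14 such fits (adjusted p 0.00482 to 0.0341). With the Ctrl and Lard libraries fitted alone, neither was called, with changes of similar size (CTSS 1.51, adjusted p = 0.0676, and ATP6V0D2 3.34, adjusted p = 0.193). CTSB stood at 426, 548.9 and 892 CPM, every library above every Ctrl library (0.244% of all genes), with a change of 0.68 ± 0.23 and an adjusted p of 0.127.

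In the aorta of IR/CHT rabbits, 21 of 27 members were higher than in Ctrl and 0 lower (22.2% of all genes were called higher and 12.2% lower), and 19 members lay wholly above Ctrl (11.2% of all genes). CTSS reached 171.6, 294 and 453 CPM and CTSB 1773, 3468 and 5898 CPM. Both lay wholly above Ctrl, with changes of 4.99 ± 0.37 and 3.26 ± 0.25. PSAP changed by 2.11 ± 0.19, CTSZ by 2.15 ± 0.20, CTSK by 1.47 ± 0.16, ATP6V1B2 by 1.81 ± 0.14, ATP6V1A by 1.35 ± 0.15, ATP6V0D1 by 0.73 ± 0.11, ATP6AP2 by 0.86 ± 0.12, LAMP1 by 1.71 ± 0.27 and ATP6V0D2 by 5.40 ± 0.97. Compared with CHT alone, 0 of 27 members were called in the aorta by edgeR, against 88 (0.596%) of all genes, and 0 by DESeq2, against 3.94%. At an unadjusted p under 0.05 the members numbered 9 (33.3%, beside 22.8% of all genes). The count called was 2 without IR/CHT L579 and 0 without any other single library. Their median difference between IR/CHT and CHT was 0.36. For CTSB it was 0.47 ± 0.24 (95% interval -0.03 to 0.97) and for CTSS 0.69 ± 0.33 (0.02 to 1.36), and neither passed the threshold (adjusted p = 0.24 and 0.211).

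In the aortic valve, 19 of 27 members were higher under CHT than in Ctrl and 0 lower, where 8.42% of all genes were called higher and 3.48% lower. The median change was 1.23 in the members and -0.02 in all genes. The groups were fully separated in 14 members, against 4.72% of all genes. Macrophage markers were higher in 9 of 16 cases and heart muscle markers lower in 7 of 8. Because all CHT aortic valves were on plate 1, the comparison was repeated within that plate, where 13 members were higher (4.52% of all genes), and with plate as a covariate, where 17 were (6.30%).

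CTSB was at 266.7, 408 and 456 CPM in Ctrl aortic valves and 1396, 1572 and 3460 CPM in CHT valves (change 2.40 ± 0.24, adjusted p = 4.9e-08). CTSS went from 5.84, 10.5 and 12.9 to 96.5, 142 and 271.4 CPM (change 4.13 ± 0.37, adjusted p = 8.32e-09). Neither gene's groups overlapped. CTSK went from 61.5, 126 and 184.6 to 331, 597 and 1108 CPM, also without overlap, a change of 2.47 ± 0.31. CTSZ, CTSV, CTSC and CTSA rose by 1.21 ± 0.19, 1.84 ± 0.32, 1.75 ± 0.29 and 1.23 ± 0.24, and CTSE by 4.14 ± 0.67. All 6 V1 subunits tested were called, with ATP6V1A at 12.5, 20.8 and 25.7 CPM in Ctrl and 43.7, 56.6 and 97.0 CPM in CHT. Those groups lay apart (change 1.74 ± 0.20, adjusted p = 5.85e-07), and ATP6V1H changed by 1.41 ± 0.17. Of the V0 subunits 3 of 6 were called, ATP6V0B (1.18 ± 0.17), ATP6V0D1 (0.69 ± 0.13) and ATP6V0D2 (6.91 ± 0.79). ATP6V0D2 was at 0, 0.235 and 1.10 CPM in Ctrl and 8.49, 17.8 and 92.8 CPM in CHT, so every CHT valve exceeded every Ctrl valve. ATP6AP2 rose by 1.55 ± 0.33 and PSAP by 1.37 ± 0.32. LAMP1 and LAMP2 stood at 0.54 ± 0.28 and 0.59 ± 0.25 and were not called. Within plate 1 the calls of PSAP (1.57, adjusted p = 0.0523), ATP6AP2 (1.44, adjusted p = 0.0688) and ATP6V0D1 (0.61, adjusted p = 0.0676) were lost with changes of similar size.

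IR/CHT aortic valves had the highest median level of all groups in 8 of the 11 cathepsins, and 24 of 27 members were higher than in Ctrl, 0 lower, and the median change was 2.55 (all genes -0.06, with 21.1% called higher and 21.7% lower). In 21 members the groups did not overlap (13.1% of all genes). Only CTSF, CTSO and ATP6V1FNB were not called, at 0.21 ± 0.29, 0.37 ± 0.30 and 0.41 ± 0.53. The 11 cathepsins together held 639, 844 and 972 CPM in Ctrl aortic valves and 7178, 10730 and 19990 CPM in IR/CHT valves. CTSB was at 4140, 6140 and 11740 CPM, a change of 4.10 ± 0.25 from Ctrl (adjusted p = 1.45e-12). CTSS reached 389, 673 and 1092 CPM (6.08 ± 0.40) and CTSK 718, 1666 and 2015 CPM (3.62 ± 0.32). All 3 lay above the whole Ctrl range. CTSZ changed by 2.82 ± 0.19, CTSV by 3.88 ± 0.34, CTSE by 6.33 ± 0.72, PSAP by 3.11 ± 0.33, ATP6V1H by 2.55 ± 0.18, ATP6V0B by 2.33 ± 0.17, ATP6V1A by 2.74 ± 0.21, ATP6V0D1 by 1.59 ± 0.13, ATP6AP2 by 2.69 ± 0.33, LAMP1 by 1.92 ± 0.28 and LAMP2 by 0.78 ± 0.24. The LAMP2 call was lost within plate 1 (0.82 ± 0.31, adjusted p = 0.0501) and plate 2 (0.60 ± 0.32, adjusted p = 0.206). The members called numbered 23 within plate 1 (33.8% of all genes in either direction) and 23 within plate 2 (21.9%). ATP6V0D2 reached 50.3, 101 and 371 CPM (change 8.91 ± 0.83), from a Ctrl level near 0.

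The aortic valve was higher still with irradiation on top of the CHT diet: 21 of 27 members were higher in IR/CHT than in CHT and 0 lower (9.9% of all genes were called higher and 9.85% lower). In the same comparison 12 of 16 macrophage markers and 3 of 3 T cell markers were higher, and their part in the result was not tested. The count was 21 within plate 1, where 8.24% of all genes were called higher and 9.5% lower. CTSZ, with the smallest p, was at 91.5, 150.5 and 208 CPM in CHT and 312, 443 and 662 CPM in IR/CHT. These groups did not overlap (difference 1.61 ± 0.19, adjusted p = 4.23e-06), nor did those of CTSB (1.71 ± 0.24, adjusted p = 1.66e-05). Among the pump genes, ATP6V0D1 differed by 0.90 ± 0.13, ATP6V0B by 1.15 ± 0.17, ATP6V1H by 1.14 ± 0.18, ATP6V1A by 1.001 ± 0.20, ATP6V0D2 by 2.001 ± 0.61 and ATP6AP2 by 1.14 ± 0.33, and all 6 V0 subunits tested were called. CTSE had the largest difference at 2.19 ± 0.62. CTSS differed by 1.95 ± 0.35, CTSK by 1.14 ± 0.30, PSAP by 1.74 ± 0.33 and LAMP1 by 1.38 ± 0.29, while LAMP2 stood at 0.19 ± 0.25 (adjusted p = 0.638). Full separation of the groups was seen in 13 members, against 6.04% of all genes.

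Lard aortic valves gave no called member by edgeR, where 0.234% of all genes were called, or by DESeq2, where 0.724% were, and 1 member had an unadjusted p under 0.05 (11% of all genes). CTSB was at 345, 394 and 555 CPM, overlapping the Ctrl range, with a change of 0.06 ± 0.22 (95% interval -0.40 to 0.51). CTSS was at 6.15, 6.80 and 26.6 CPM, a change of 0.14 ± 0.32 (-0.53 to 0.80). PSAP stood at -0.23 ± 0.30, LAMP1 at -0.10 ± 0.27, ATP6V1A at 0.25 ± 0.19 and ATP6AP2 at 0.47 ± 0.31.

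**Figure D2:**
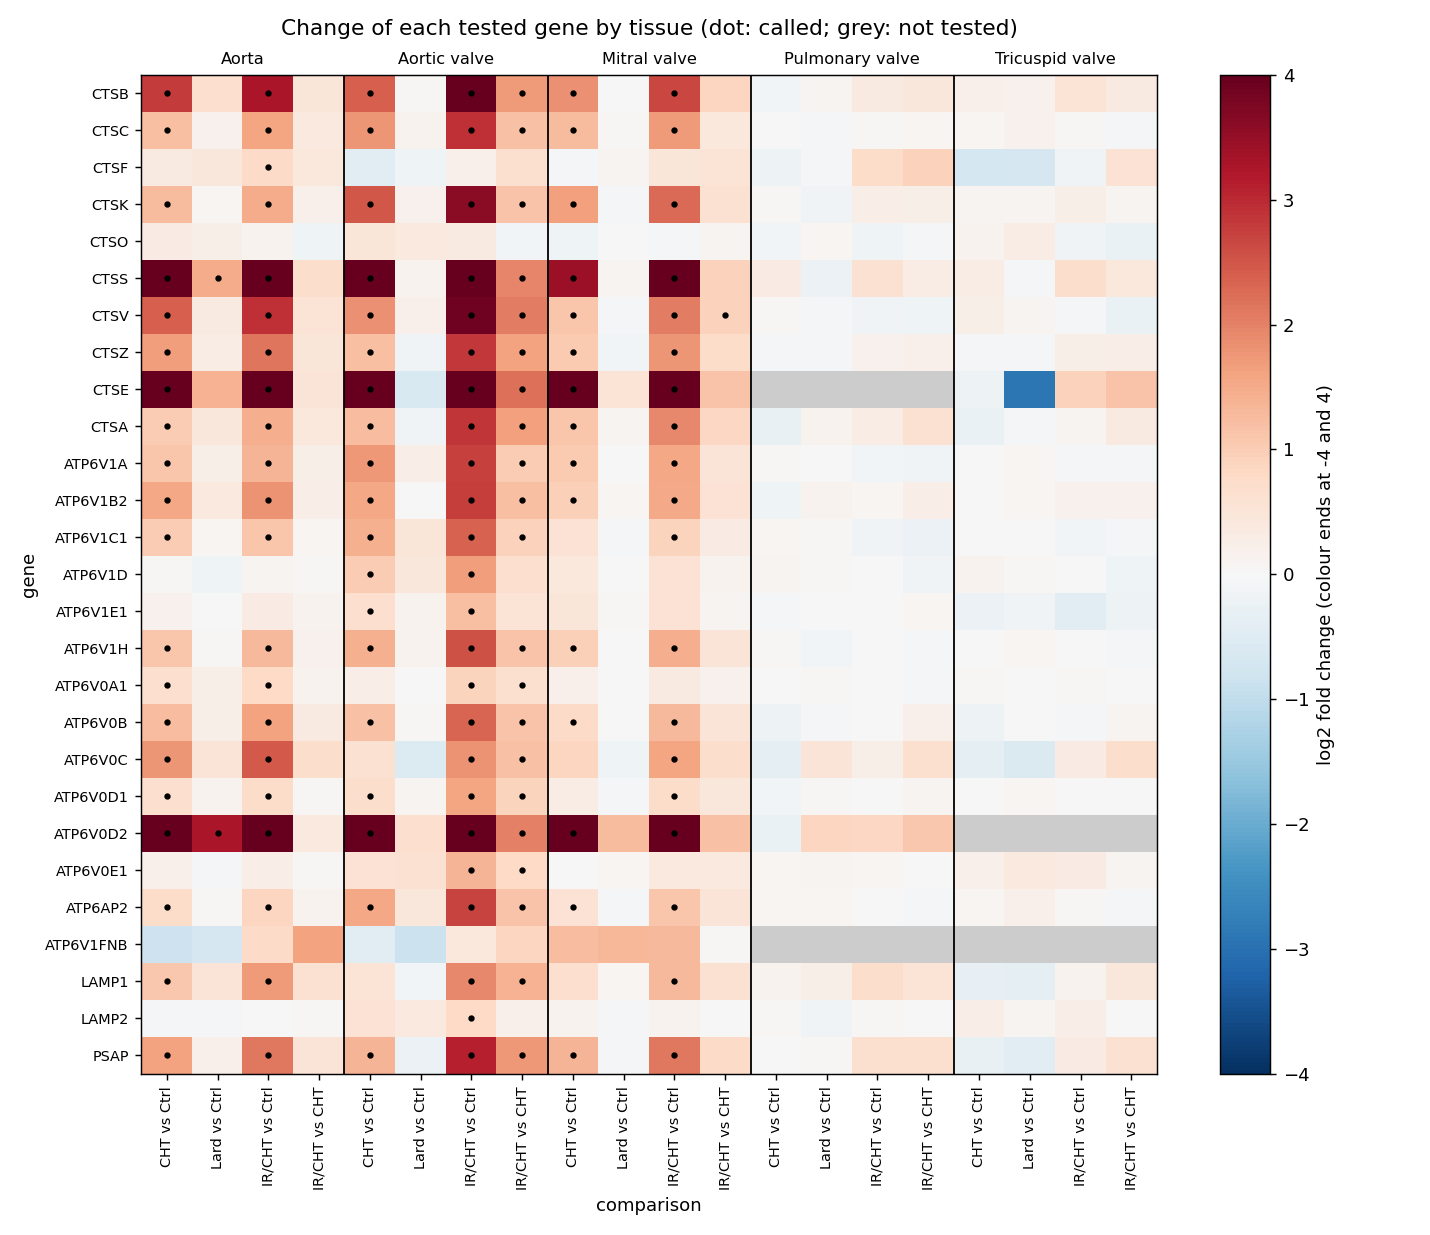
Log2 fold change of each tested member (rows) in the 4 comparisons of each tissue (columns), with a dot where the member was called and grey where it was not tested. Dots fill the CHT and IR/CHT columns of the aorta, mitral valve and aortic valve (15 to 24 of 27 members), and no dot stands in the pulmonary and tricuspid valves.

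In the mitral valve, 15 of 27 members were higher under CHT than in Ctrl and 0 lower, where 4.98% of all genes were called higher and 0.64% lower, with a median change of 0.95. The groups did not overlap in 13 members (3.09% of all genes). Within plate 1, which held all CHT mitral valves, 13 members were higher (3.60% of all genes). CTSB measured 344, 425 and 505 CPM in Ctrl and 708, 1320 and 2387 CPM in CHT (change 1.83 ± 0.25, adjusted p = 1.57e-05). CTSS went from 4.63, 12.7 and 22.4 to 55.6, 150.4 and 225 CPM (change 3.41 ± 0.45, adjusted p = 1.18e-05). CTSK went from 107, 141 and 168.7 to 249.9, 431 and 572.6 CPM (change 1.65 ± 0.21, adjusted p = 7.07e-06). The groups of these 3 proteases did not overlap. CTSE, at 0.164, 0.284 and 0.716 CPM in Ctrl, was at 4.82, 11.2 and 26.9 CPM in CHT, and ATP6V0D2, at 0, 0.0543 and 0.303 CPM in Ctrl, was at 2.75, 12.2 and 50.6 CPM. In both genes every CHT valve lay beyond the Ctrl range, with fitted changes of 5.37 ± 0.66 and 7.35 ± 0.81 that rest on Ctrl medians of 5 counts and 1 count. CTSZ rose by 1.04 ± 0.22, ATP6V1A by 1.04 ± 0.18, ATP6AP2 by 0.59 ± 0.18 and PSAP by 1.34 ± 0.30. The PSAP call was lost within plate 1, at 1.26 ± 0.37 (adjusted p = 0.0654). ATP6V0D1, LAMP1 and LAMP2 stood at 0.30 ± 0.13, 0.68 ± 0.25 and 0.14 ± 0.15 and were not called.

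IR/CHT mitral valves had 19 of 27 members higher than Ctrl and 0 lower (11.1% of all genes called higher, 6.65% lower), with a median change of 1.46 and 20 members wholly above Ctrl (6.16% of all genes). Within plate 1 the count was 20 (12.1% of all genes in either direction) and within plate 2 it was 16 (7.18%). CTSV measured 95.7, 125 and 138 CPM in Ctrl and 357, 507 and 709 CPM in IR/CHT. Its groups were far apart, and it had the smallest p (change 2.05 ± 0.17, adjusted p = 5.07e-09). CTSK changed by 2.26 ± 0.21, CTSB by 2.69 ± 0.25, CTSS by 4.33 ± 0.46, CTSE by 6.52 ± 0.67, CTSZ by 1.77 ± 0.22, PSAP by 2.11 ± 0.30, LAMP1 by 1.28 ± 0.24, ATP6V1A by 1.54 ± 0.18, ATP6V0D1 by 0.74 ± 0.13, ATP6V0D2 by 8.54 ± 0.83 and ATP6AP2 by 1.10 ± 0.17. Within plate 2 the calls of ATP6V0D1 (0.71, adjusted p = 0.0621) and ATP6AP2 (0.89, adjusted p = 0.0693) were lost. LAMP2 stood at 0.13 ± 0.15. Against CHT alone edgeR called only CTSV (0.93 ± 0.17, adjusted p = 0.0164), and it was also the 1 member whose groups did not overlap (0.15% of all genes). Of all genes 0.0522% were called higher and 0.137% lower, while 18 members (66.7%, beside 13.1% of all genes) had an unadjusted p under 0.05 and the median difference was 0.53. CTSB stood at 0.85 ± 0.23, CTSS at 0.92 ± 0.40, PSAP at 0.77 ± 0.28 and ATP6V1A at 0.50 ± 0.17. DESeq2 called 2 members (1.18% of all genes). The edgeR count of 1 depended on single libraries: it was 6 without IR/CHT L175, 3 without CHT L157, 2 without CHT L266 and 0 without any of CHT L170, L187, L229 and L245. It was also 0 within plate 1 (CTSV 0.99, adjusted p = 0.128) and with the 2 groups fitted alone (CTSV 0.92, adjusted p = 0.149). In Lard mitral valves 0 members and 0% of all genes were called by edgeR, DESeq2 called 0 members, 0 had an unadjusted p under 0.05 (1.65% of all genes) and the median change was 0.001. The 95% interval of the Lard change was -0.45 to 0.49 for CTSB and -0.72 to 0.92 for CTSS.

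In the pulmonary and tricuspid valves 0 of 25 members were called by edgeR in any of the 4 comparisons, where the share of all genes called was 0.159% under CHT, 0% under Lard, 0.706% under IR/CHT and 0.0761% for IR/CHT vs CHT in the pulmonary valve. In the tricuspid valve those shares were 0.163%, 0%, 0.231% and 0%. Under CHT, 0 members had an unadjusted p under 0.05 in either valve (9.97% of all genes in the pulmonary and 7.54% in the tricuspid valve), and under Lard 0 in the pulmonary (2.49%) and 2 of 25 in the tricuspid valve (8.16%). Under IR/CHT they were 6 of 25 against Ctrl (15.3% of all genes) and 7 against CHT (24.5%) in the pulmonary valve, and 3 (8.15%) and 0 (9%) in the tricuspid valve. CTSB was at 264.8, 431 and 448 CPM in Ctrl pulmonary valves, 284, 397 and 448 CPM under CHT and 455, 536 and 584 CPM under IR/CHT. All IR/CHT libraries lay above all Ctrl libraries, with a change of 0.35 ± 0.12 and an adjusted p of 0.167. In the tricuspid valve the same gene was at 207, 393 and 419.8 CPM in Ctrl and 439.8, 566.4 and 637 CPM under IR/CHT, again without overlap (0.55 ± 0.16, adjusted p = 0.227). CTSS stood at 0.62 ± 0.24 in the pulmonary and 0.71 ± 0.27 in the tricuspid valve (adjusted p = 0.217 and 0.423). Full separation of IR/CHT above Ctrl was seen in 1 of 25 members in each valve, against 0.45% and 0.15% of all genes, and of IR/CHT above CHT in 1 of 25 in the pulmonary valve (0.526%). DESeq2 called 2 members in the pulmonary valve for IR/CHT vs Ctrl (2.07% of all genes) and 2 for IR/CHT vs CHT (3.47%), and 0 in the other 6 comparisons of these valves. Without L275, an IR/CHT pulmonary valve that stood apart, edgeR called 1 member against Ctrl (0.854% of all genes). Within plate 1 alone it called 1 in the pulmonary (0.671%) and 2 in the tricuspid valve (2.06%) for IR/CHT vs Ctrl, and within plate 2 alone 0 in each. PSAP and LAMP1 had the smallest p of the IR/CHT pulmonary valve, with changes of 0.65 ± 0.18 and 0.70 ± 0.20 (adjusted p = 0.0935 and 0.0935), and both were highest in L275. ATP6V1A, the catalytic subunit of the pump, stood at -0.10 ± 0.10 in the pulmonary and -0.06 ± 0.10 in the tricuspid valve, and CTSK at 0.28 ± 0.16 and 0.25 ± 0.17. CTSE and ATP6V0D2 did not exceed 1.94 and 2.19 CPM in any library of either valve.

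Whether the response itself differed between valves was tested with an interaction of tissue and treatment. The CHT response was larger in the aortic than in the pulmonary valve in 17 of 27 members and smaller in 0 (4.01% of all genes were called larger and 0.382% smaller), and the IR/CHT response in 24 and 0 (16.8% and 23.3%). CTSE and ATP6V1FNB are among these 27 although their counts passed the filter in the aortic valve alone of the pair. Over the 24 members left without these 2 and ATP6V0D2, which was low in Ctrl in both valves, the counts were 16 and 22. The all-gene median of the second difference was -0.19, against 2.46 in the members. CTSB differed by 2.48 ± 0.27 for CHT (adjusted p = 7.96e-09) and by 3.69 ± 0.27 for IR/CHT (adjusted p = 2.39e-15). For IR/CHT, CTSS differed by 5.39 ± 0.44, CTSK by 3.28 ± 0.34, CTSZ by 2.59 ± 0.25, ATP6V1A by 2.78 ± 0.21, ATP6V0D1 by 1.49 ± 0.15, ATP6AP2 by 2.62 ± 0.33, PSAP by 2.40 ± 0.37, LAMP1 by 1.16 ± 0.35 and LAMP2 by 0.67 ± 0.26. The LAMP2 difference was lost without the libraries that stood apart (0.50, adjusted p = 0.105). Between the mitral and tricuspid valves the CHT response was larger in 14 of 27 members (2.14% of all genes larger, 0.0881% smaller) and the IR/CHT response in 20 (6.32% and 3.23%), with 0 smaller. ATP6V0D2, called for both treatments, and ATP6V1FNB were tested in the mitral but not in the tricuspid valve, and CTSE was low in Ctrl in both. Over the 24 members left without these 3 the counts were 12 and 18. CTSB differed by 1.62 ± 0.30 and 2.16 ± 0.29, and PSAP by 1.61 ± 0.42 and 1.82 ± 0.40. LAMP1 differed by 1.16 ± 0.39 for IR/CHT, a call lost with the rabbit as a block (0.64, adjusted p = 0.152). CTSZ differed by 1.06 ± 0.29 for CHT, also lost with that block (0.84, adjusted p = 0.0813). CTSZ for CHT (0.95, adjusted p = 0.0719) and PSAP for CHT (adjusted p = 0.0666 for the aortic and 0.0694 for the mitral comparison) were lost without the libraries that stood apart. The aortic PSAP call was also lost with DESeq2's size factors (1.26, adjusted p = 0.053) and with no filter on low counts (1.34, adjusted p = 0.0516), and the mitral LAMP1 call without the libraries that stood apart (0.75, adjusted p = 0.152) and with no filter (1.13, adjusted p = 0.084).

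**Figure D3:**
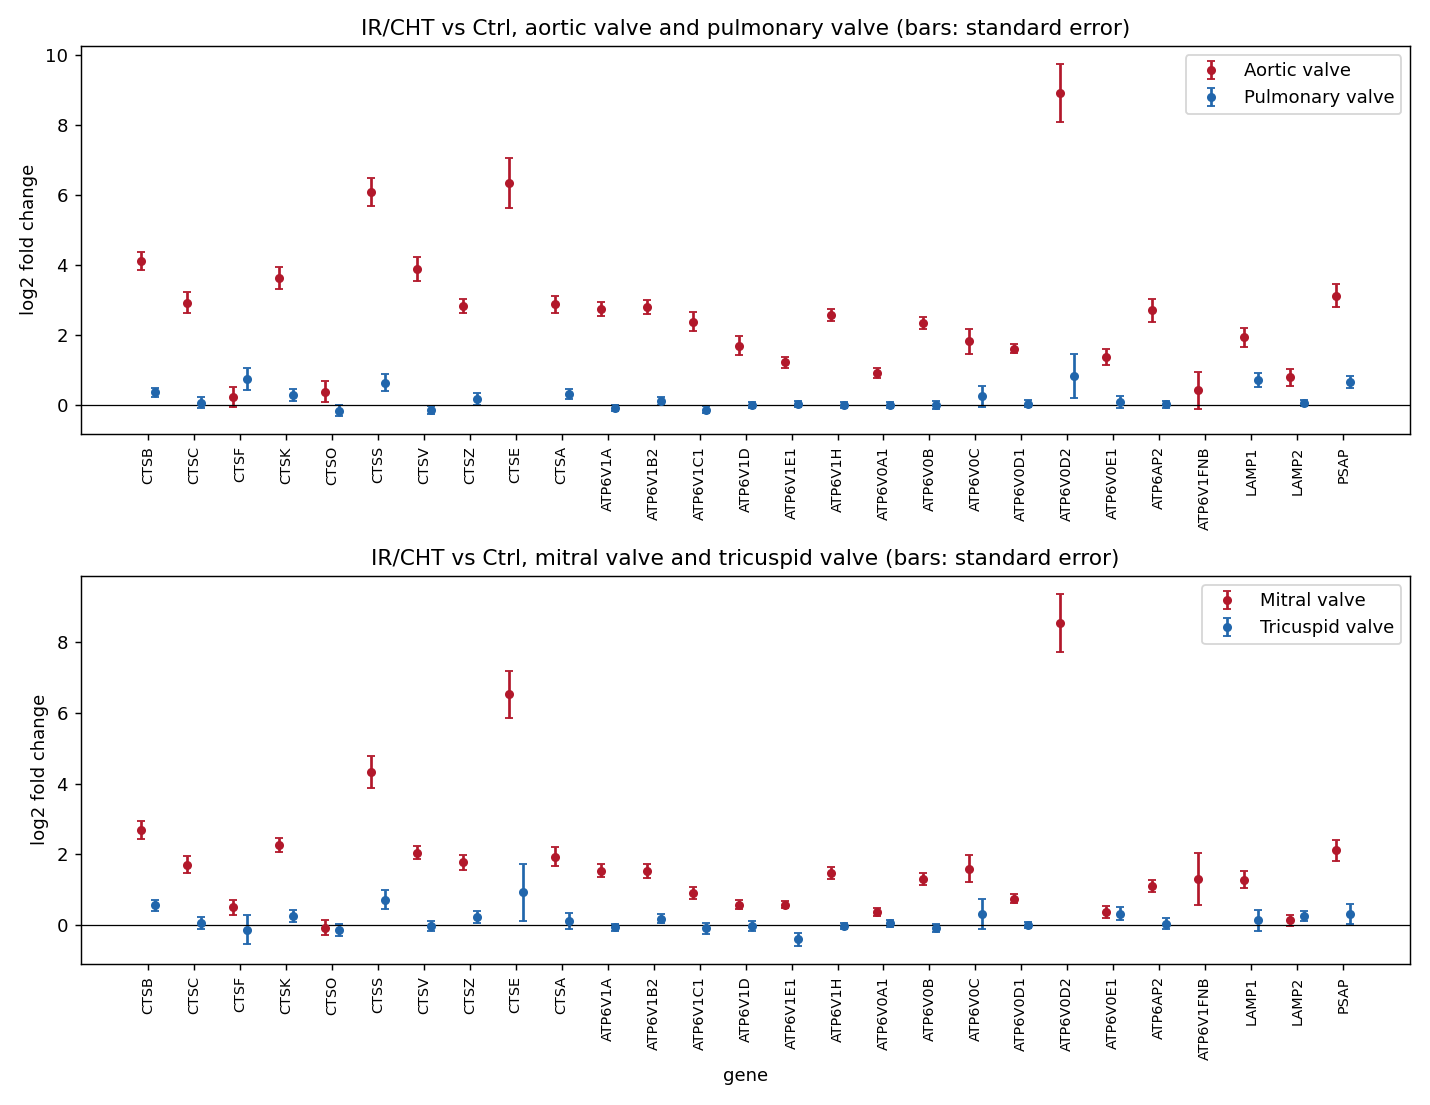
Log2 fold change of IR/CHT vs Ctrl with its standard error for each tested member, with the aortic and pulmonary valves in the upper panel and the mitral and tricuspid valves in the lower. Points of the aortic and mitral valves reach 8.91 and 8.54 (ATP6V0D2), and those of the pulmonary and tricuspid valves stay within 1 of 0.

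The CHT response of the aortic valve differed from that of the aorta in 2 of 27 members, where 1.05% of all genes had a larger response in the valve and 4.25% a smaller one. These were CTSK (1.16 ± 0.34, adjusted p = 0.031) and ATP6V1D (0.90 ± 0.28, adjusted p = 0.0487), both larger in the valve. With plate as a covariate 0 differed. As CHT aortas were all on plate 2 and CHT aortic valves all on plate 1, plate and tissue cannot be told apart within CHT. For CTSB the 95% interval of the difference was -1.11 to 0.22, so a larger or smaller response is not resolved. Under IR/CHT the valve response was larger in 15 of 27 members and smaller in 0 (11.1% of all genes larger, 21.7% smaller), with a median difference of 0.83 beside -0.29 over all genes. CTSK differed by 2.02 ± 0.32, ATP6AP2 by 1.71 ± 0.33, ATP6V1A by 1.26 ± 0.23 and ATP6V0D1 by 0.72 ± 0.16. CTSB, CTSS and PSAP stood at 0.71 ± 0.32, 0.96 ± 0.46 and 0.85 ± 0.36 and were not called. ATP6V0D2 differed by 3.38 ± 1.22, a call lost with the rabbit as a block (2.46, adjusted p = 0.0661) and with plate as a covariate (2.99, adjusted p = 0.0557).

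On chow, members were called between tissues in both directions, as were many other genes, and nothing particular to the module is read from these counts. Against the aorta, Ctrl aortic valves had 3 members higher and 6 lower of 27 (32% of all genes higher and 17.7% lower, all-gene median 0.19), or 2 higher and 7 lower with DESeq2's size factors. The log2 difference of valve and aorta was -1.43 ± 0.23 for CTSK, -1.10 ± 0.20 for ATP6V1D, -1.06 ± 0.23 for ATP6AP2 and 1.48 ± 0.36 for ATP6V0C, all called. Against the pulmonary valve, the aortic valve had 7 members higher and 9 lower (29.1% and 20%), or 5 and 9 over the 24 tested in both valves and not low in Ctrl. Here the difference was 1.16 ± 0.26 for PSAP, 1.66 ± 0.25 for LAMP1 and -1.20 ± 0.30 for CTSS. Mitral and tricuspid valves differed in 1 member, ATP6V1E1 (-0.82 ± 0.16, where 1.93% of all genes were higher and 4.73% lower in the mitral valve). With the rabbit as a block it was 4 (28.5% of all genes), and without the Ctrl tricuspid valve L168 and the IR/CHT tricuspid valve L197 it was also 4 (27.3%).

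Over the CHT and IR/CHT comparisons with Ctrl in the aorta, mitral valve and aortic valve, 15 of 27 members were called higher in all 6, 10 in 1 to 5 and 2 (CTSO and ATP6V1FNB) in none. Of the 14250 genes tested in all 3 tissues, 584 (4.10%) were called higher in all 6. Without CTSE, ATP6V0D2 and ATP6V1FNB, which were low in Ctrl, it was 13 of 24 members. These comparisons share their Ctrl libraries within a tissue. The 15 were CTSA, CTSB, CTSC, CTSE, CTSK, CTSS, CTSV, CTSZ, ATP6V1A, ATP6V1B2, ATP6V1H, ATP6V0B, ATP6V0D2, ATP6AP2 and PSAP. LAMP2, CTSF and ATP6V0E1 were called in 1 each. In the IR/CHT aortic valve the V1 subunits ranged from 1.21 (ATP6V1E1) to 2.78 (ATP6V1B2) and the V0 subunits other than ATP6V0D2 from 0.90 (ATP6V0A1) to 2.33 (ATP6V0B). ATP6V0D2, at 8.91, had a median of 5 counts in Ctrl aortic valves.

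Other lysosomal genes were examined in 5 lists, whose counts stand beside the share of all genes called higher: 14.2% in the aorta, 8.42% in the aortic valve and 4.98% in the mitral valve under CHT, and 22.2%, 21.1% and 11.1% under IR/CHT. The lists are incomplete, since only genes found by symbol could be used. Found were 30 of 43 symbols for soluble hydrolases and activators, 21 of 27 for membrane and transport and 24 of 31 for delivery and biogenesis. For inhibitors 5 of 9 were found, and for pump assembly 10 of 12. Of the soluble hydrolases and activators, 30 were tested in each tissue, and 21 rose under CHT in the aorta, 15 in the aortic valve and 8 in the mitral valve, with 0 lower. Under IR/CHT 24 rose in the aorta, 23 in the aortic and 21 in the mitral valve, and in the aortic valve 22 were higher than under CHT alone (9.9% of all genes). LIPA, the acid lipase that frees cholesterol from its esters, rose by 2.23 ± 0.21, 2.87 ± 0.30 and 2.26 ± 0.28 under CHT in these tissues. GLB1, the lysosomal beta-galactosidase, rose by 2.44 ± 0.20 in the aortic valve under CHT and 4.05 ± 0.21 under IR/CHT. GUSB, the beta-glucuronidase, rose under CHT by 2.74 ± 0.25 in the aortic valve and 2.77 ± 0.26 in the aorta, and GGH, a gamma-glutamyl hydrolase, by 3.51 ± 0.30 in the aorta and 2.83 ± 0.28 in IR/CHT mitral valves. TPP1, a tripeptidyl peptidase, rose by 2.34 ± 0.15 in IR/CHT aortic valves.

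Of the lysosomal membrane and transport genes, 8 of 20 rose in the aorta, 7 of 21 in the aortic valve and 4 of 21 in the mitral valve under CHT, and 0 fell. Under IR/CHT 9 rose in the aorta and 8 in the mitral valve. In IR/CHT aortic valves 12 rose and 2 fell, namely the peptide transporter ABCB9 (change -2.27 ± 0.65) and the acetyltransferase HGSNAT (change -0.68 ± 0.21). GPNMB, a glycoprotein of lipid-loaded macrophages and pigment cells, rose by 6.48 ± 0.64 in the aorta, 7.26 ± 0.42 in the aortic valve and 5.91 ± 0.44 in the mitral valve under CHT, and by 9.54 ± 0.46 in IR/CHT aortic valves. NPC2, which hands cholesterol on to the membrane exporter NPC1, rose by 1.43 ± 0.17 and 0.99 ± 0.18 in the CHT valves, and OSTM1, the partner of the chloride exchanger of lysosomes, by 1.30 ± 0.14 in the CHT aorta. Of the genes of delivery and biogenesis, 7 of 24 rose under CHT in the aorta, 7 in the aortic valve and 6 in the mitral valve, and under IR/CHT 11 rose in the aorta, 19 in the aortic valve and 11 in the mitral valve. The mannose 6-phosphate receptors M6PR and IGF2R, which carry new hydrolases to lysosomes, rose by 1.33 ± 0.16 and 1.76 ± 0.25 in the CHT aorta and by 2.14 ± 0.17 and 4.002 ± 0.31 in IR/CHT aortic valves. GNPTAB, which makes the mannose 6-phosphate tag, rose by 1.24 ± 0.13 in the IR/CHT aorta. The MiT-family transcription factor TFEC rose by 3.26 ± 0.43 in the CHT aorta, and RRAGD, a GTPase of the lysosomal surface, by 2.83 ± 0.29 in IR/CHT aortic valves.

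The inhibitors of cathepsins and the helpers of pump assembly completed the set. Of 5 inhibitor genes found by symbol, 2 passed the count filter in the aorta and aortic valve and 1 in each other tissue. CSTB, the intracellular inhibitor stefin B, rose under CHT by 1.64 ± 0.27 in the aorta, 1.78 ± 0.22 in the aortic valve and 1.14 ± 0.28 in the mitral valve, and CST7, cystatin F of immune cells, by 5.04 ± 0.89 in the CHT aorta. Of 9 genes for assembly and regulation of the pump, 2 rose in the CHT aorta (DMXL2, 1.46 ± 0.17, and RNASEK, 1.14 ± 0.18), the same number in the CHT aortic valve and 0 in the CHT mitral valve. Under IR/CHT 2 of 9 rose in the aorta and 1 of 9 in the mitral valve, shares of the size seen over all genes there, and 7 of 9 in the aortic valve, with ROGDI at 1.68 ± 0.18. In the Lard aorta 2 of 20 membrane genes (GPNMB and CD68) and 1 of 2 inhibitors (CST7) were called higher (2.57% of all genes) and 0 genes of the other 3 lists. With the Ctrl and Lard aortas fitted alone 0 of all genes were called, so these 3 calls and those of 8 macrophage markers in the Lard aorta were lost in that fit. In the pulmonary and tricuspid valves 0 genes of the 5 lists were called in CHT vs Ctrl. GPNMB was the single gene of these lists called there under IR/CHT, in the pulmonary valve, by 2.40 ± 0.29 against Ctrl (adjusted p = 1.14e-05) and 1.82 ± 0.30 against CHT.

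Macrophage markers were higher in the comparisons in which most members were. Of 16 such genes, 13 were higher in the CHT aorta, 9 in the CHT aortic valve and 12 in the CHT mitral valve, 15, 14 and 13 under IR/CHT and 8 in the Lard aorta (2.57% of all genes), with 0 lower. They were also higher where edgeR called 0 members over all libraries: 4 of 16 in the IR/CHT pulmonary valve against Ctrl and 1 against CHT, and 2 of 15 in the IR/CHT tricuspid valve against Ctrl, where 0.706%, 0.0761% and 0.231% of all genes were called. Their summed level was 304, 359 and 460.1 CPM in Ctrl aortas and 751, 1435 and 1677 CPM in CHT aortas, groups that did not overlap. In the aortic valve it was 574.8 (median) and 724 (highest) CPM in Ctrl, 1055, 1461 and 1568 CPM in CHT and 2950, 3498 and 3835 CPM in IR/CHT, again without overlap from group to group. In the mitral valve it was 291, 482 and 760.5 CPM in Ctrl and 1087, 1799 and 2173 CPM in IR/CHT, and in the pulmonary valve 625.2, 754 and 783 and 350, 942 and 1024 CPM. CD68, a lysosomal glycoprotein of macrophages that is also in the membrane list, went from 16.1, 28.0 and 34.4 CPM in Ctrl aortic valves to 484, 671 and 985 CPM under IR/CHT, and CSF1R, the receptor that macrophages depend on, from 40.6, 85.9 and 129 to 356, 487 and 515 CPM.

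The 11 cathepsins summed to 2.67, 3.04 and 3.44 times the macrophage marker sum in Ctrl aortas (lowest, median and highest library) and 2.53, 3.59 and 4.37 times under CHT, so those ranges overlapped. The size of the ratio depends on gene lengths, and it is set side by side only between groups. In the aortic valve the ratio was 1.30, 1.44 and 3.19 in Ctrl, 1.86, 2.40 and 3.87 in CHT, 1.38, 2.57 and 4.12 in Lard and 1.98, 3.46 and 5.21 in IR/CHT. All these ranges overlapped, and the Lard median, in a group with 0 members called, was above that of CHT. In the mitral valve it was 1.30, 1.98 and 2.89 in Ctrl, 1.88, 2.39 and 2.76 in CHT, 1.23, 1.69 and 2.78 in Lard and 2.25, 2.85 and 3.29 in IR/CHT. The CHT range there lay inside the Ctrl range. The ratio did not go one way in all tissues: it was 2.62, 3.16 and 3.71 in IR/CHT aortas, with a median close to that of Ctrl, and the IR/CHT median was below the Ctrl median in the pulmonary valve (1.12, 1.47 and 1.56 in Ctrl and 1.17, 1.23 and 3.01 in IR/CHT) and in the tricuspid valve (0.875, 1.34 and 1.45 and 1.04, 1.15 and 1.65). Neutrophil markers summed to at most 34.2 CPM in any library (9 genes). Tested against Ctrl, 1 of 2 was higher in the IR/CHT aorta (22.2% of all genes) and in the Lard aorta (2.57%). The Lard call was lost with only the Ctrl and Lard aortas fitted. In IR/CHT aortic valves 1 of 4 was higher than Ctrl (21.1%), and against CHT 1 was higher and 1 lower (9.9% and 9.85%). Of 6 osteoclast symbols listed, only 2 were found. Those 2 summed to 0 CPM in every Ctrl aortic valve, to 0.0498, 0.437 and 1.30 CPM in IR/CHT aortic valves and to no more elsewhere. T cell markers (3 genes) went from 0.147, 0.368 and 1.48 CPM in Ctrl to 6.59, 15.6 and 27.1 CPM in IR/CHT aortic valves, with all 3 called. In the aorta they were at 0.254, 1.03 and 2.60 CPM in Ctrl and 3.07, 6.87 and 12.6 CPM in IR/CHT, with 3 of 3 called, and in the mitral valve at 0.505, 0.800 and 1.76 CPM in Ctrl, 0.289, 2.85 and 6.41 CPM in CHT and 2.90, 8.93 and 16.5 CPM in IR/CHT, with 1 of the 2 tested called in each. In the aortic valve, B cell markers (4 genes) were at 2.49, 6.86 and 16.4 CPM in Ctrl and 0.529, 2.31 and 4.73 CPM in IR/CHT, ranges that overlapped. The counts of the following markers stand beside the shares of all genes called higher and lower, which were 14.2% and 5.18% in the CHT aorta, 22.2% and 12.2% in the IR/CHT aorta, 8.42% and 3.48% in the CHT aortic valve, 21.1% and 21.7% in the IR/CHT aortic valve, 4.98% and 0.64% in the CHT mitral valve and 11.1% and 6.65% in the IR/CHT mitral valve. Smooth muscle markers (5 genes) fell in the aorta, where 3 of 5 were lower under CHT and 5 under IR/CHT, from 81740, 101700 and 115500 CPM in Ctrl to 11400, 31080 and 60950 CPM under IR/CHT. In the valves they were mixed, with 1 of 5 higher under CHT and 2 higher and 3 lower under IR/CHT in the aortic valve and 2 higher under either in the mitral valve. In IR/CHT pulmonary valves 0 of 5 were called, while their sum was 273.6, 598.6 and 19620 CPM. Endothelial markers (6 genes) were higher in the aorta, 5 of 6 under CHT, and 0 were called in any valve. In IR/CHT pulmonary valves the endothelial sum was 84.2, 1254 and 1326 CPM. Heart muscle markers were higher in the IR/CHT aorta (5 of 7, with 1 lower), although the summed level of 8 such genes there was 445, 622 and 722 CPM in Ctrl and 161.3, 219 and 3142 CPM under IR/CHT, with the lower median under IR/CHT and the highest library L566. They were lower in CHT and IR/CHT aortic valves (7 of 8 each) and in Lard aortic valves (4 of 8), in which 0 members were called. Those 4 calls were lost with only the Ctrl and Lard valves fitted and within either plate, where 0 of all genes were called. Of the 5 fibroblast and valve interstitial markers, 2 were higher in the CHT aorta, 3 higher and 1 lower in the IR/CHT aorta, 1 higher and 1 lower in the IR/CHT aortic valve (about the share of all genes) and 1 lower in the IR/CHT mitral valve, while of 3 adipocyte markers 2 were lower in IR/CHT mitral valves, and both red blood cell markers were lower in the CHT aorta. The part that any of these cell types had in the change of the module was not tested.

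**Figure D4:**
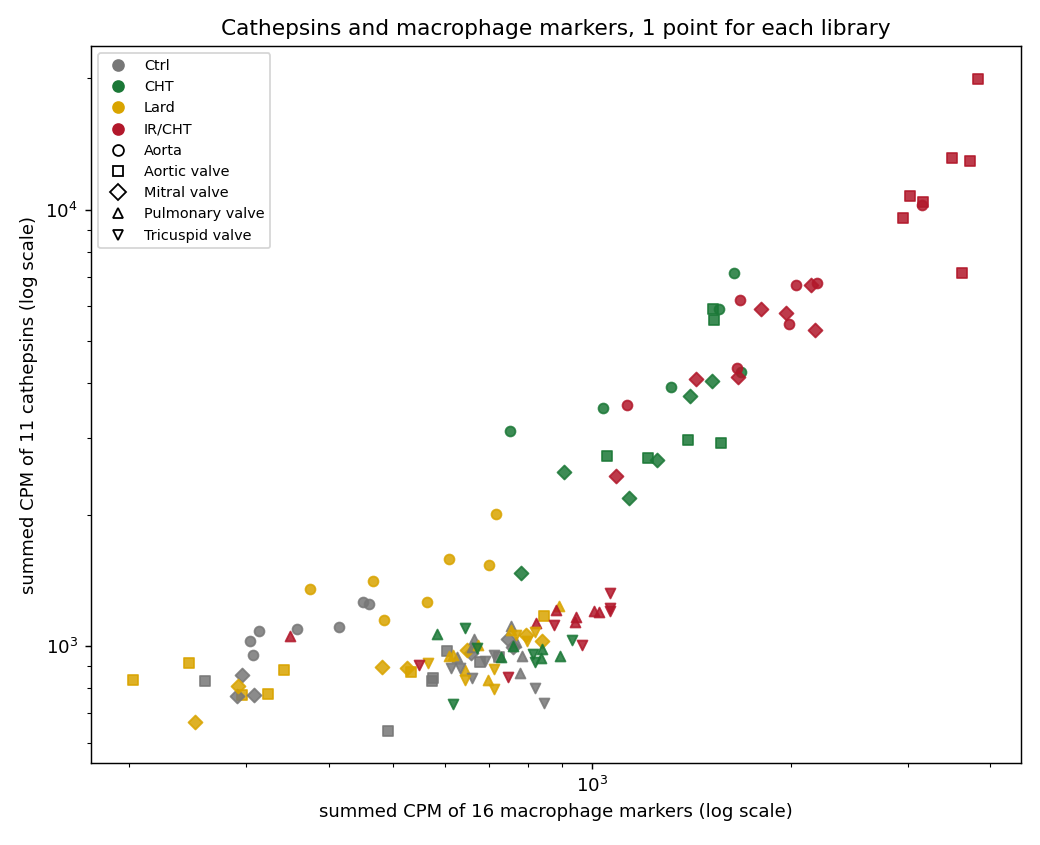
Summed level of the 11 cathepsins against that of 16 macrophage markers, both in CPM on log axes, with 1 point for each library, the colour for the treatment and the shape for the tissue. IR/CHT aortic valves stand at the upper right with medians of 10730 and 3498 CPM, and the Ctrl pulmonary and tricuspid valves have medians of 994 and 889 CPM of cathepsins.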

How the data were processed

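Total RNA of 134 valve and aorta samples was sequenced (SMARTer Stranded Total RNA-Seq Pico v2 libraries from 10 ng RNA, NovaSeq6000). The deposited values are raw counts per gene, which the authors made with the nf-core RNA-seq pipeline on the OryCun2.0 genome and its Ensembl annotation, after bcl2fastq 2.20; the pipeline was run at its default settings apart from read trimming, and no strand option is named. Each library comes from a separate rabbit within a tissue. Totals of 13564979 to 50577676 counts set the precision, and 24 of the 34 members exceeded 3 counts in every library.

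Counts were filtered with filterByExpr, normalised by TMM and fitted within each tissue over the 4 treatments by edgeR 4.0.16 (R 4.3.3, limma 3.58.1) with robust quasi-likelihood tests, 2-sided. Benjamini-Hochberg adjustment ran over all genes tested (14450 to 15408 in a tissue). Responses in 2 tissues were compared in 1 model over both, called at an adjusted p under 0.05. CPM values use TMM factors over all 134 libraries. DESeq2 1.42.0 and the other alternatives are given in the closing section. The code was tested on simulated data, and figures were drawn with matplotlib 3.10.9 in Python 3.11.15.

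The library names give the rabbit, which pairs tissues. Deviations from the group means correlated more within a rabbit than between rabbits in the aortic valve and aorta (median 0.232 against -0.01), in the aortic and pulmonary valves (0.225 against -0.01) and in the mitral and tricuspid valves (0.33 against 0.01), and the replicate block with the rabbit was run as an alternative. Within a tissue the groups share no rabbit. No 2 libraries looked alike enough to be the same library (highest correlation 0.991).

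The members, the gene lists and the tests were chosen with earlier results of these data known. Named members are the 5 with the smallest p among those called in a comparison, the one with the largest change, and a fixed core of cathepsins, pump subunits, LAMP1, LAMP2 and PSAP, and named genes of the other lists are the 3 with the smallest p; genes named beyond these were chosen after their values were seen. The vitamin D2 that CHT, Lard and IR/CHT rabbits received and Ctrl rabbits did not cannot be told apart from the diets. Gene symbols are those of the count tables, and no genome of this build was used here, so positions and sequences are not given.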

Additional observations from a re-analysis of the deposited data

Results flagged for a closer look

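Of 220 groups of 6 or 7 libraries in which a core member's level was examined, 23 held a library far from the others by Dixon's criterion, which chance alone gives in about 1 group in 20, and they fell in 17 libraries. Library L168, a Ctrl tricuspid valve that also stood apart over all genes, gave 4 of them: PSAP was at 999.3 CPM (others 191.9 to 450.3), LAMP1 at 143.2 CPM (25.54 to 48.54), LAMP2 at 42.25 CPM (77.01 to 98.31) and ATP6AP2 at 19.38 CPM (49.46 to 59.68). The IR/CHT pulmonary valve L275 gave 3, with PSAP at 687.1 CPM (318.3 to 446.9), LAMP1 at 115.4 CPM (38.34 to 52.4) and ATP6V1A at 18.3 CPM (26.83 to 29.93). The Ctrl pulmonary valve L153 was low in CTSB, at 264.8 CPM (384.2 to 447.5), and in PSAP, at 166.5 CPM (264.6 to 321.3).

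ATP6V0D2 accounted for 6. It was at 71.15 CPM in the Lard aorta L578 (others 1.272 to 22.39), 50.57 CPM in the CHT mitral valve L266 (2.749 to 18.34) and 93.97 CPM in the IR/CHT mitral valve L237 (16.58 to 49.36). At low levels it was at 1.102 CPM in the Ctrl aortic valve L240 (0 to 0.2936), 1.944 CPM in the IR/CHT pulmonary valve L549 (0.4526 to 1.063) and 0.5523 CPM in the Ctrl tricuspid valve L243 (0 to 0.1833).

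Among the proteases, CTSB was at 266.7 CPM in the Ctrl aortic valve L150 (383.7 to 456), CTSZ at 89.56 CPM in the Ctrl aortic valve L166 (54.11 to 66.41), CTSS at 26.59 CPM in the Lard aortic valve L232 (6.154 to 12.63) and CTSK at 99.81 CPM in the CHT tricuspid valve L231 (150.5 to 171.2). The others were ATP6V0D1 at 186.7 CPM in the IR/CHT aortic valve L236 (119.6 to 142.7), ATP6V1A at 25.01 CPM in the Lard pulmonary valve L545 (27.82 to 29.58), LAMP1 at 84.52 CPM in the CHT tricuspid valve L172 (30.07 to 42.97) and PSAP at 609 CPM in the Lard mitral valve L544 (422.3 to 495.9).

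The response differed between tissues by the interaction test in 2 of 27 members (CHT) and 15 (IR/CHT) for the aortic valve against the aorta, where 1.05% and 11.1% of all genes had a larger and 4.25% and 21.7% a smaller response. The 2 members both had a larger response in the valve. It differed in 17 and 24 for the aortic against the pulmonary valve (4.01% and 16.8% larger, 0.382% and 23.3% smaller) and in 14 and 20 for the mitral against the tricuspid valve (2.14% and 6.32% larger, 0.0881% and 3.23% smaller). Without CTSE, ATP6V0D2 and ATP6V1FNB, which were low in Ctrl or not tested in 1 tissue, these counts over 24 members were 2 and 14, 16 and 22, and 12 and 18.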

How the results depend on the processing

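Leaving out single libraries aside, 15 counts of called members under an alternative setting, from 7 of the comparisons, moved by over 1.5 times, and the others did not. Among named members 23 changes lost their call under at least 1 setting, in 37 pairs of change and setting, while 930 pairs stayed on their side of the threshold and 0 reversed. The cause was not tested. For Lard against Ctrl in the aorta (2 members) the count was 1 with no filter on low counts and 0 with only the 2 groups fitted, and 1 to 2 when single libraries were left out. For IR/CHT against CHT the mitral count of 1 became 2 with DESeq2, 0 with only the 2 groups fitted, 0 with plate 1 alone and 0 to 6 when single libraries were left out, and the count of 0 in the aorta ranged from 0 to 2, with 2 without IR/CHT L579. In the pulmonary valve DESeq2 called 2 members for IR/CHT against CHT and 2 against Ctrl, where 1 was called with plate 1 alone, with plate as a covariate and without the libraries that stood apart. In the tricuspid valve 2 were called for IR/CHT against Ctrl with plate 1 alone. On chow, the mitral against tricuspid count of 1 became 4 with the replicate block and 4 without the libraries that stood apart. The CHT response in the aortic valve against the aorta (2 members) became 1 with no filter and 0 with plate as a covariate. The replicate block moved no other count by over 1.5 times. Beside the calls given with their results, it ended those of ATP6V0D2 (-1.56, adjusted p = 0.135) and LAMP1 (0.61, adjusted p = 0.0505) for the aortic valve against the aorta on chow. Leaving out single libraries gave 20 to 20 members for CHT and 20 to 21 for IR/CHT against Ctrl in the aorta, 18 to 19 and 24 to 24 in the aortic valve, where IR/CHT against CHT gave 19 to 23 and Lard 0 to 0, and 14 to 16 and 19 to 22 in the mitral valve. Single libraries were not left out in the other comparisons. Low counts limit CTSE and ATP6V0D2, whose Ctrl medians are near 0, and the 7 members that passed no filter.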
